A study of Homo sapiens with 20 samples.

Results

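The genes described here encode the nuclear subunits of the oxidative phosphorylation (OXPHOS) complexes, measured by RNA sequencing (RNAseq) in HL60 cells, a human promyelocytic acute myeloid leukemia line. Members were chosen by symbol and by their mean over all RNAseq libraries, and the rule uses no group comparison. Earlier results of these data were known when the members were chosen. The symbols start with NDUFA, NDUFB, NDUFC, NDUFS, NDUFV, UQCR, COX4, COX5, COX6, COX7, COX8 or ATP5, or are SDHA to SDHD or CYC1. Symbols with a hyphen, NDUFAF assembly factors and symbols of pseudogene form were dropped, which removed 16 rows, and a mean of at least 50 normalized counts over the 12 RNAseq libraries was required. This left 80 of 28051 named genes, and all 80 also passed the filter on low values that preceded the tests. Complex I accounted for 37 members, complex II for 4, complex III for 10, complex IV for 12 and complex V for 17. The symbols are those of the deposited files, so ATP5G1 to ATP5G3 are the genes now called ATP5MC1 to ATP5MC3.

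The rule is not a perfect list of subunits. ATP5S and ATP5SL, now DMAC2L and DMAC2, carry an ATP5 symbol but are not structural subunits of ATP synthase, and both are counted with complex V. NDUFA4 is counted with complex IV, where its protein resides, and COX7A2L, a factor of respiratory supercomplexes, is counted there as well. UQCRHL is a near copy of UQCRH, so reads may have been split between the pair, and its mean of 432 normalized counts was the lowest of the members. Just below the limit on the mean stood NDUFA4L2 with 20.6 normalized counts, while ATP5L2 had 3.67, COX6A2, COX6B2 and COX8C had 0.0833 each, and COX4I2, COX7A1 and COX7B2 were listed at 0 in every library. Several of these 8 are tissue-specific isoforms of the retained genes.

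Cells that carried Cas9 without the knockout (Cas9 control) and cells labelled HK3-null, both made with the lentiCRISPRv2 vector, were given 1 µM all-trans retinoic acid (ATRA), which drives HL60 cells toward neutrophil-like cells, or 0.01% DMSO for 36 h. Each of the 4 groups had 3 RNAseq libraries and 2 libraries of an assay for transposase-accessible chromatin (ATACseq), which makes 20 in all. The knockout lines of the study are clonal, and the paper describes 2 HK3-null clones. A shared tag, KO-2G, marks each HK3-null sample in both assays, which points to 1 knockout line. Cas9 control samples are tagged only as CAS9, so whether they came from 1 clone or several is not stated. The p-values may thus measure only the spread between cultures. A difference between clones cannot be told apart from a difference between genotypes. HK3, the gene targeted, had 90, 65 and 105 normalized counts in Cas9 control DMSO libraries and 344, 302 and 346 in HK3-null DMSO libraries. In ATRA it had 1305, 1298 and 1850 against 1384, 1285 and 1975. Libraries labelled HK3-null thus had no less of its RNA, and had more of it in DMSO (log2 fold change 1.96 ± 0.21 (SE), n = 3 per group, limma adjusted p = 1.11e-05). An edit can remove a protein and leave its RNA, so HK3 RNA does not check the label. The paper reports that its knockout clones were checked by genomic DNA sequencing and by mass spectrometry of the protein. The genotype is used below only as labelled.

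The sums of normalized counts lay between 29053838 and 31548189 per library. The 8 HL60 markers were above 0 in every library, with sums of 564695 to 832413, and of 18 markers of other cell types 4 to 10 were at 0 per library. The rest of that second list summed to 6169 to 15343, most of it CD4, which myeloid cells also express, and their part in the results was not tested. ITGAM, which encodes the maturation marker CD11b, had means of 25.7 in Cas9 control DMSO and 350 in HK3-null DMSO libraries. Among the 8 HL60 markers, 5 were higher and 1 lower in HK3-null libraries in DMSO (limma adjusted p under 0.05). These directions held 27.9% and 27.1% of all tested genes. In ATRA 4 were higher and 1 lower (29.6% and 29.5%). The highest log2 fold change of the 8 was 3.77 in DMSO and 0.68 in ATRA. Cas9 control DMSO replicate 1 stood apart from the other libraries on the third principal component, and the genotype counts of members are also given without it.

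OXPHOS takes place in the inner mitochondrial membrane. Complexes I and II pass electrons from NADH and succinate to ubiquinone, complex III passes them through cytochrome c to complex IV, which reduces oxygen, and complexes I, III and IV pump protons. The returning protons drive ATP synthesis by complex V. A small set of core subunits is encoded by mitochondrial DNA, none of them in complex II, and all other subunits are imported, so the complexes need matched output from both genomes. Promoters of the nuclear genes often hold sites for NRF1 and for the ETS-family factor GABP, which are known regulators of respiratory genes.

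Promoter windows were read for 65 members that could be matched in the RefSeq promoter table (GRCh38.p14), 250 bases before to 50 bases after each start site. They were searched on both strands for the NRF1 motif (GCGC, any base, then TGCGC) and the GABP/ETS motif CCGGAAG, and no match of one motif overlapped a match of the other among members. The NRF1 letters were found in 15 members (23.1%) and the ETS letters in 20 (30.8%), against 6.98% and 12.2% of all 27305 genes in the table. At least 1 motif was present in 32 members (49.2%) and in 17.6% of all genes. The members had to reach a mean of 50 normalized counts, while the genes they are set against were not filtered by expression. Shares among other expressed genes were not counted. By complex, the NRF1 letters stood in 6 of 32 complex I genes, 2 of 3 complex II genes, 4 of 7 complex III genes, 0 of 11 complex IV genes and 3 of 12 complex V genes. The ETS letters stood in 5, 2, 3, 5 and 5 of the same genes. The windows of 5 lower genes are printed 5′ to 3′ up to the start site, with motif matches on either strand in capitals, to show this range for genes whose RNA is described below. NDUFB4 is added as a gene that did not pass the test in either genotype comparison.
NDUFA3, chr19:54102605-54102854, plus strand, with NRF1 letters only: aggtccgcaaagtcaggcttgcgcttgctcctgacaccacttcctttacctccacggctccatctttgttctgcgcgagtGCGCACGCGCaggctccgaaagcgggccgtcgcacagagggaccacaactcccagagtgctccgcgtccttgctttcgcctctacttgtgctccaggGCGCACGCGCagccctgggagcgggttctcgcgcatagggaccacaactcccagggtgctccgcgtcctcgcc
UQCR11, chr19:1605463-1605712, minus strand, with both motifs: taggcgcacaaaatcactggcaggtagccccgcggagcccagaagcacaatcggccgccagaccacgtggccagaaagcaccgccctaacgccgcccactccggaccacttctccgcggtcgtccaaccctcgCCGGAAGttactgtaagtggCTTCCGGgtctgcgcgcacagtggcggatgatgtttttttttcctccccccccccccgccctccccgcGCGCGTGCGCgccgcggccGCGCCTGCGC
SDHD, chr11:112086623-112086872, plus strand, with both motifs: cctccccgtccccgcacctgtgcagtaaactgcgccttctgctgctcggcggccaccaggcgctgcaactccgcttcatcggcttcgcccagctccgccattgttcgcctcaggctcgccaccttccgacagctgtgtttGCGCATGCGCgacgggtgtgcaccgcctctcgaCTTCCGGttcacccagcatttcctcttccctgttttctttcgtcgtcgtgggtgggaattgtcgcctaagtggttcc
COX6A1, chr12:120437863-120438112, plus strand, with ETS letters only: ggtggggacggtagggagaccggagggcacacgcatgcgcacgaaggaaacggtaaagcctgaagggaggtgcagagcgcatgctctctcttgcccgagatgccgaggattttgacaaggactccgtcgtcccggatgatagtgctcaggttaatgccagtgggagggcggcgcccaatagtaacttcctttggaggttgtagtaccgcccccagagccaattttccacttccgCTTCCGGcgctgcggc
ATP5G1, chr17:48892537-48892786, plus strand, with neither motif: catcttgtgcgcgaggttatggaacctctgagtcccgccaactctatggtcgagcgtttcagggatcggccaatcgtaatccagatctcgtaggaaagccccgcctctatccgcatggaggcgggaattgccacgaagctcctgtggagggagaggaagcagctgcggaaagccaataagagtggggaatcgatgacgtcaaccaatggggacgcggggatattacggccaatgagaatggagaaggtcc
NDUFB4, chr3:120596086-120596335, plus strand, with NRF1 letters: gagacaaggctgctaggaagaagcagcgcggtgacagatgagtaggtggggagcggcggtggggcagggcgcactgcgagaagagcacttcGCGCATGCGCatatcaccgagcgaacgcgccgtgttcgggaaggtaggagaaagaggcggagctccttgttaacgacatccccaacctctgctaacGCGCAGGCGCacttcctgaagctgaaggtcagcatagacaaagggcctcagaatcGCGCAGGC
The last NRF1 match of NDUFB4 runs across the start site, so only its first bases are shown. A match is a description of letters and does not show binding. Among the 56 matched members that were lower in HK3-null libraries in both treatments, 28 (50%) held a motif, as did 4 of the 8 matched members (50%) that were neither lower in both nor higher in both. Of the 6 members higher in both, only 1 was matched, and it held no motif, so the higher members are hardly covered.

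The first comparison asked how the HK3-null libraries differed from Cas9 control libraries without ATRA. OXPHOS subunit transcripts were lower across all 5 complexes. These are RNA levels, and neither subunit protein nor respiration can be read from them. The paper measured oxygen consumption and reports a similar basal rate in HK3-null and control cells of both leukemia lines it used. Whether the line sequenced here was among those measured is not stated. Of the 80 members, 64 were lower and 6 higher (limma, Benjamini-Hochberg adjusted p under 0.05 over 13256 tested genes), and 10 did not pass. Among all tested genes, 27.1% passed as lower and 27.9% as higher. The median log2 fold change of members was -0.46, which is a fall of 27.4%, and that of all tested genes was 0.00. All 3 HK3-null libraries lay below all 3 Cas9 control libraries for 67 members and above them for 7 (31.9% and 31.8% of all tested genes), and the groups overlapped for 6. A change of at least 1.5-fold was reached by 31 of the lower and 3 of the higher members (14.7% and 17.4% of all tested genes). Lower by 2-fold or more were 10 members, and that threshold was not counted over all tested genes. Without Cas9 control DMSO replicate 1, 63 members passed as lower and 4 as higher (3190 and 3470 of all tested genes).

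The same comparison in ATRA-treated cells gave 65 members lower and 6 higher, with 29.5% and 29.6% of all tested genes passing in these directions. The median was -0.50 among members and 0.01 among all tested genes. The HK3-null libraries lay wholly below the Cas9 control libraries for 65 members and wholly above them for 4 (31.2% and 32.2% of all tested genes). The comparisons in DMSO and in ATRA share no library, and over the 80 members their log2 fold changes had a Pearson correlation of 0.96, given as a description because all libraries came from the same lines and were scaled together. Over all tested genes that correlation was 0.84. In both treatments 63 members were lower and 6 were higher, and 8 passed in neither. Of all 13256 tested genes, 2903 were lower and 2946 were higher in both treatments. Without Cas9 control DMSO replicate 1, 64 members were lower and 6 higher in ATRA (3865 and 3943 of all tested genes).

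Summed over the 80 members, subunit transcripts made up 1.70% ± 0.0223 (SD, n = 3) of normalized counts in Cas9 control DMSO libraries, 1.62% ± 0.0165 in Cas9 control ATRA, 1.24% ± 0.0142 in HK3-null DMSO and 1.09% ± 0.052 in HK3-null ATRA libraries. The 4 groups did not overlap. HK3-null ATRA replicate 3 had the lowest share, 1.03%, against 1.10% and 1.14% in the other replicates of its group. A bulk library cannot tell less RNA per cell from fewer cells of one kind.

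**Figure D1:**
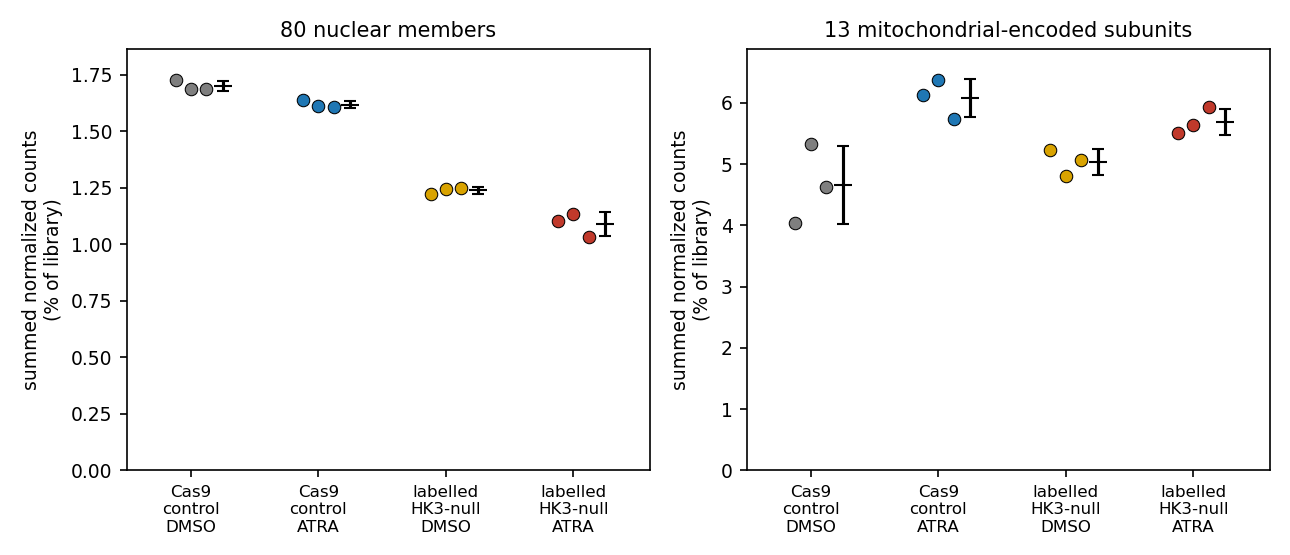
Share of all normalized counts taken by the 80 nuclear OXPHOS subunit genes (left panel) and by the 13 mitochondrial-encoded subunits (right panel), in percent (y axes), in the 4 groups (x axes). Points are libraries and bars are the mean ± SD (n = 3), and on the left the HK3-null libraries lie between 1.03% and 1.25% while the Cas9 control libraries lie between 1.61% and 1.73%, and on the right the DMSO libraries (4.04% to 5.32% in Cas9 control and 4.81% to 5.23% in HK3-null) lie below the ATRA libraries (5.74% to 6.37% and 5.51% to 5.92%).

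Complex I, the NADH dehydrogenase, had 29 of 37 members lower and 1 higher in DMSO (median log2 fold change -0.45), and 31 lower and 1 higher in ATRA (median -0.47). Among its 7 nuclear core subunits, which carry the electron transfer centres, 5 were lower in DMSO and 6 in ATRA, and of the 30 accessory subunits 24 and 25 were lower. NDUFS6, a zinc-binding accessory subunit of the NADH-oxidising arm, had 5705, 5325 and 4975 normalized counts in Cas9 control DMSO libraries and 1988, 1896 and 1975 in HK3-null DMSO libraries. In ATRA the values were 4908, 4396 and 4072 against 1630, 1717 and 1493, so that no HK3-null library reached a Cas9 control library. The log2 fold changes were -1.45 ± 0.08 in DMSO (limma adjusted p = 4.87e-08) and -1.46 in ATRA (limma adjusted p = 4.2e-08). NDUFS4 and NDUFA2, other accessory subunits of the matrix arm, had log2 fold changes of -1.20 and -1.15 in DMSO and of -1.28 and -1.10 in ATRA.

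NDUFA3, an accessory subunit of the membrane arm with NRF1 letters in its promoter, had 1860, 1727 and 1740 normalized counts in Cas9 control DMSO and 877, 804 and 884 in HK3-null DMSO libraries. In ATRA it had 1853, 1791 and 1756 against 864, 989 and 796. The groups were well separated, with log2 fold changes of -1.05 ± 0.08 (limma adjusted p = 6.24e-07) and -1.03. NDUFC1, another membrane-arm subunit, had 1795, 1798 and 1552 against 768, 745 and 815 in DMSO, a log2 fold change of -1.14 (limma adjusted p = 2.85e-07), and is taken up again with the ATRA comparisons. NDUFB4, whose promoter also holds NRF1 letters, had 3258, 3137 and 2854 against 2934, 2777 and 2939 in DMSO. Those libraries overlapped, and the log2 fold change of -0.09 did not pass (limma adjusted p = 0.271). The single complex I member that was higher was NDUFB9, an accessory subunit at the end of the membrane arm, with 3255, 3037 and 2946 in Cas9 control DMSO and 5191, 5221 and 5491 in HK3-null DMSO libraries (log2 fold change 0.78 ± 0.06, limma adjusted p = 1.26e-06).

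The 4 subunits of complex II, succinate dehydrogenase, moved unequally. SDHA, the flavoprotein that oxidises succinate, had 9226, 8854 and 8942 normalized counts in Cas9 control DMSO and 4064, 4154 and 3930 in HK3-null DMSO libraries. With ATRA it had 8539, 8447 and 8091 against 3634, 3535 and 3317. Every HK3-null library lay below every Cas9 control library, with log2 fold changes of -1.15 ± 0.05 (limma adjusted p = 5.51e-09) and -1.26 (limma adjusted p = 3.41e-09). SDHB, the iron-sulphur subunit, had 6218, 5970 and 5785 against 3788, 3704 and 3705 in DMSO, a log2 fold change of -0.68, and one of -0.69 in ATRA. The membrane anchor subunits differed from each other in their values. SDHD, whose promoter holds both motifs, had 4860, 5116 and 4699 against 3841, 3765 and 3501 in DMSO, with log2 fold changes of -0.40 in DMSO and -0.53 in ATRA. SDHC had 2046, 2069 and 2107 in Cas9 control DMSO and 2226, 2174 and 2270 in HK3-null DMSO libraries. These libraries were slightly higher in HK3-null cells without overlap, but the log2 fold change of 0.10 (95% interval -0.01 to 0.21) did not pass (limma adjusted p = 0.125). In ATRA the SDHC libraries overlapped, with a log2 fold change of 0.08 (95% interval -0.03 to 0.20, limma adjusted p = 0.198). SDHC passed in DMSO when libraries were scaled to equal sums (adjusted p = 0.0264, limma) and in ATRA without HK3-null ATRA replicate 3 (log2 fold change 0.13, adjusted p = 0.034).

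All 10 members of complex III, the cytochrome bc1 complex, passed in both treatments, 8 as lower and 2 as higher (median -0.59 in each). UQCRQ, a small subunit of this complex, had the lowest log2 fold change of all members in DMSO. It had 5745, 5554 and 5132 normalized counts in Cas9 control DMSO and 1818, 1810 and 1841 in HK3-null DMSO libraries. In ATRA it had 5348, 5139 and 4672 against 1852, 1931 and 1604. All HK3-null libraries were far below the controls, and the log2 fold change was -1.59 ± 0.08 in DMSO (limma adjusted p = 2.08e-08) and -1.49 in ATRA (limma adjusted p = 2.86e-08). UQCR11, the small subunit with both motifs in its promoter, had 3398, 3304 and 3168 against 2816, 2764 and 2751 in DMSO, without overlap (log2 fold change -0.24, limma adjusted p = 0.00595). UQCRH, the hinge protein, and its near copy UQCRHL had log2 fold changes of -0.45 and -0.59 in DMSO.

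The 2 higher members of complex III were UQCRB, a ubiquinone-binding subunit, and CYC1, cytochrome c1. UQCRB had 3703, 3912 and 3398 normalized counts in Cas9 control DMSO and 5269, 5450 and 5790 in HK3-null DMSO libraries. In ATRA it had 4307, 4268 and 4095 against 6815, 7259 and 6569. The groups did not overlap in either treatment, with log2 fold changes of 0.59 and 0.70. CYC1 had 5674, 5330 and 5513 against 7516, 7628 and 6929 in DMSO (log2 fold change 0.42 ± 0.09, limma adjusted p = 0.00284). With ATRA CYC1 had 5186, 4930 and 4587 against 6332, 6396 and 4888, where the lowest HK3-null library fell within the range of the controls (log2 fold change 0.25, limma adjusted p = 0.0374). That last call was lost without Cas9 control ATRA replicate 2 or 3 (adjusted p = 0.0739 and 0.118) and without HK3-null ATRA replicate 1 or 2 (adjusted p = 0.135 and 0.143, limma). It was also lost with quantile normalization, without the filter on low values, with only the 2 groups compared and without the variance trend (adjusted p = 0.0501, 0.0537, 0.0996 and 0.0603, limma).

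Complex IV, cytochrome c oxidase, had 8 of 12 members lower and 2 higher in DMSO (median -0.35), and 7 lower and 2 higher in ATRA (median -0.30). COX7C, a small structural subunit, had 12412, 12531 and 11159 normalized counts in Cas9 control DMSO and 4519, 4580 and 4479 in HK3-null DMSO libraries. COX5A, a matrix-facing structural subunit, had 12166, 11711 and 10663 against 4343, 4388 and 4077. Both genes were lower in every HK3-null library, with log2 fold changes of -1.41 ± 0.07 (limma adjusted p = 2.82e-08) and -1.43 ± 0.08 (limma adjusted p = 6.72e-08). The values in ATRA were -1.44 and -1.43. COX6A1, with ETS letters in its promoter, had 5246, 5144 and 5079 against 3282, 3267 and 3180 in DMSO, without overlap (log2 fold change -0.67, and -0.64 in ATRA). COX4I1, the ubiquitous isoform of the largest nuclear subunit, had log2 fold changes of -0.47 and -0.39, and COX6B1, an intermembrane-space subunit, of -0.40 and -0.26.

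The subunits that differ by isoform set gave a second view of complex IV. The alternative isoforms COX4I2, COX6A2, COX6B2, COX7A1, COX7B2 and COX8C were at or near 0 in every group, so the ubiquitous isoforms made up nearly all of the counts. COX7A2 had 6147, 6097 and 5648 normalized counts in Cas9 control DMSO and 6732, 7008 and 6700 in HK3-null DMSO libraries, a separation that just passed (log2 fold change 0.19, limma adjusted p = 0.0471) and that lost the call without any single replicate of Cas9 control DMSO or HK3-null DMSO, or without replicate 2 of Cas9 control ATRA or replicate 1 of HK3-null ATRA (adjusted p from 0.0571 to 0.148, limma). The call was also lost without the filter on low values (adjusted p = 0.0697, limma) and without the variance trend (0.0727). In ATRA its log2 fold change was 0.33 (limma adjusted p = 0.00264). COX6C, a small subunit, had 3484, 3291 and 2932 against 4875, 4780 and 4896 in DMSO, higher in every HK3-null library (log2 fold change 0.59, and 0.56 in ATRA). COX8A, a small ubiquitous subunit, had 6294, 6124 and 5974 against 6082, 5922 and 5783, and those libraries overlapped (log2 fold change -0.05, limma adjusted p = 0.604). In ATRA COX8A had a log2 fold change of 0.08 (limma adjusted p = 0.365), and of 0.18 (adjusted p = 0.0102) without HK3-null ATRA replicate 3. COX7A2L had log2 fold changes of -0.14 (limma adjusted p = 0.0874, or 0.0115 with the replicate number as a block, 0.0325 without HK3-null ATRA replicate 3 and 0.0422 with only the 2 groups compared) and 0.01.

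NDUFA4, a late-joining subunit of complex IV, had 5362, 5190 and 4895 normalized counts in Cas9 control DMSO and 4291, 4514 and 4233 in HK3-null DMSO libraries, which did not overlap. Its log2 fold change of -0.24 passed (limma adjusted p = 0.0225) but was lost without replicate 1 or 2 of Cas9 control DMSO or replicate 1 or 3 of HK3-null DMSO (adjusted p from 0.0582 to 0.077, limma). In ATRA it was -0.14 (limma adjusted p = 0.163, or 0.0338 with the replicate block). It passed with quantile normalization (-0.22, adjusted p = 0.00853, limma), with equal sums (-0.18, adjusted p = 0.0212) and without HK3-null ATRA replicate 2 (-0.21, adjusted p = 0.042). Its low-level paralog NDUFA4L2 had group means of 41 in Cas9 control DMSO, 18.3 in Cas9 control ATRA, 18.3 in HK3-null DMSO and 4.67 in HK3-null ATRA libraries, with log2 fold changes of -1.23 (limma adjusted p = 0.0381) and -2.13 (limma adjusted p = 0.00175) for HK3-null against Cas9 control.

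Complex V, the ATP synthase, had 16 of 17 members lower in both treatments (median -0.48 in DMSO and -0.55 in ATRA). All 5 subunits of the F1 head and central stalk, all 4 of the peripheral stalk, all 3 c-ring genes and all 3 of the membrane subunits e, f and g were among them. The catalytic subunit gene ATP5B had 60616, 60351 and 58677 normalized counts in Cas9 control DMSO and 38179, 39215 and 37022 in HK3-null DMSO libraries, without overlap (log2 fold change -0.65, limma adjusted p = 4.47e-06). ATP5A1, which encodes its alpha partner, had log2 fold changes of -0.54 in DMSO and -0.71 in ATRA. The lower 16 also include ATP5SL, which is not a structural subunit (log2 fold changes -0.32 in DMSO and -0.23 in ATRA). The gene that was not lower, ATP5S, is not a structural subunit either. ATP5S had 579, 667 and 515 against 865, 896 and 705 in DMSO, without overlap but with the widest spread of the higher members (log2 fold change 0.49 ± 0.16, limma adjusted p = 0.0245), and was no longer called without replicate 1 or 3 of Cas9 control DMSO or replicate 1 or 2 of HK3-null DMSO (adjusted p from 0.0585 to 0.0891) or with quantile normalization (0.0843). In ATRA its log2 fold change was 0.46 (limma adjusted p = 0.0299), lost without replicate 2 or 3 of Cas9 control ATRA or replicate 1 or 2 of HK3-null ATRA (adjusted p from 0.0609 to 0.113), with quantile normalization (0.0564) and with only the 2 groups compared (0.0549).

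The c ring, the rotor of ATP synthase, is built from 1 mature protein encoded by ATP5G1, ATP5G2 and ATP5G3, which differ in their import sequences. ATP5G1 had 6840, 6932 and 6525 normalized counts in Cas9 control DMSO, 4891, 5168 and 4549 in Cas9 control ATRA, 3101, 3229 and 3071 in HK3-null DMSO, and 1978, 2121 and 1568 in HK3-null ATRA libraries. The 4 groups were ordered without overlap. For ATP5G2 the values were 12578, 12144 and 12267, then 12480, 12552 and 12487, then 10133, 10669 and 10214, then 10056, 10550 and 8853 in the same order of groups. ATP5G2 thus separated the cell lines but not the treatments. ATP5G3 had 15905, 16090 and 15278 in Cas9 control DMSO and 9578, 10177 and 9514 in HK3-null DMSO libraries. The log2 fold changes in DMSO were -1.11 for ATP5G1 (95% interval -1.32 to -0.90), -0.25 for ATP5G2 (-0.38 to -0.13) and -0.69 for ATP5G3 (-0.84 to -0.55), and those intervals did not overlap. In ATRA they were -1.38, -0.35 and -0.67.

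**Figure D2:**
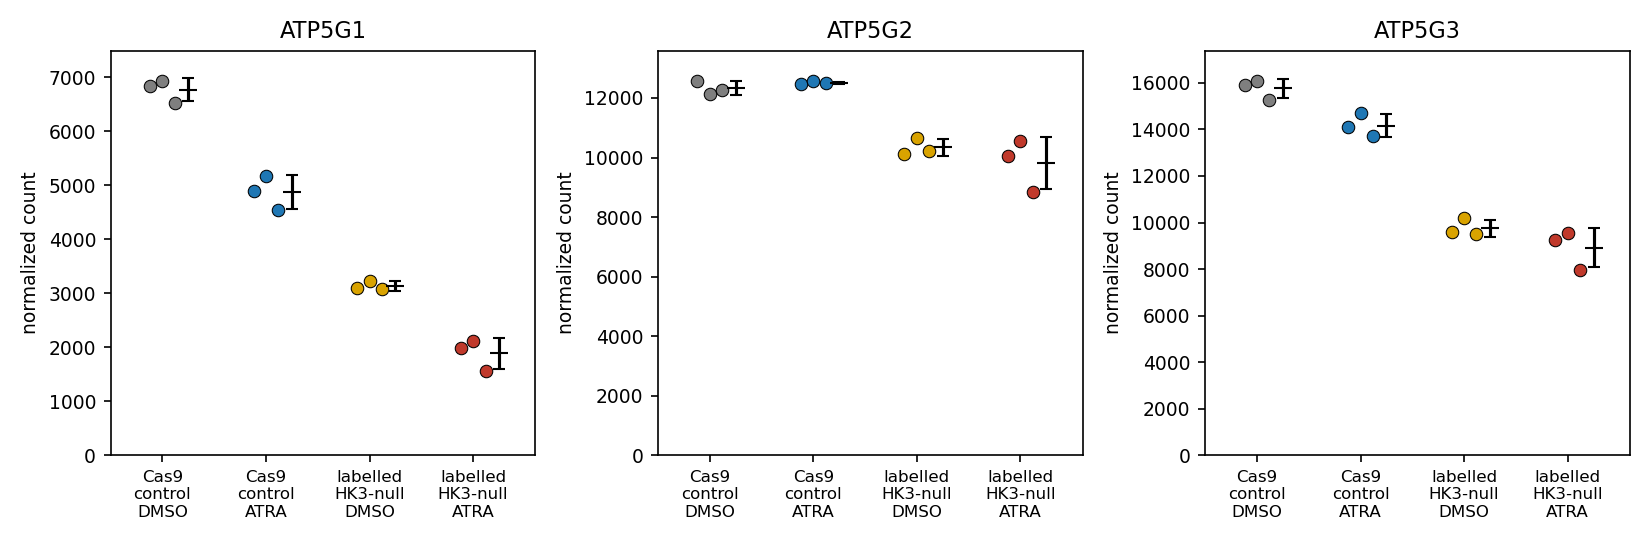
Normalized counts (y axis) of the c-ring genes ATP5G1, ATP5G2 and ATP5G3 in the 4 groups (x axis). Points are libraries and bars are the mean ± SD (n = 3), and ATP5G1 falls from 6525 to 6932 in Cas9 control DMSO to between 1568 and 2121 in HK3-null ATRA, while ATP5G2 stays between 8853 and 12578 in all libraries.

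**Figure D3:**
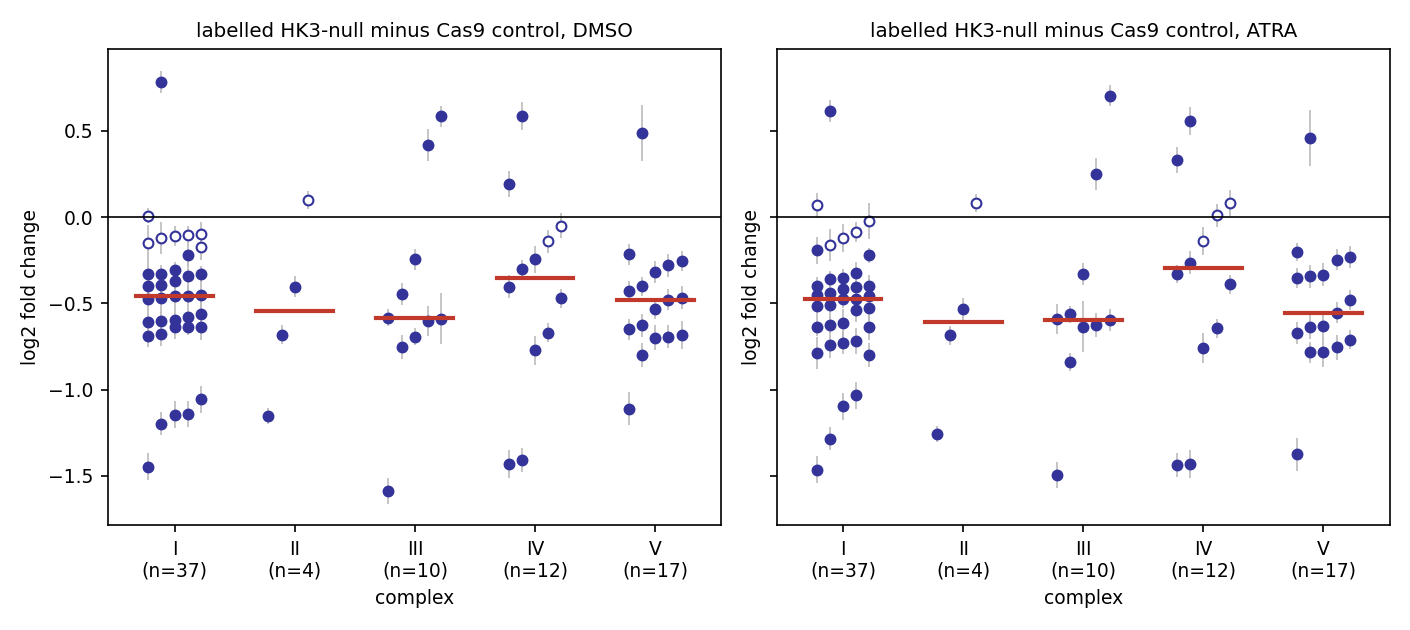
Log2 fold change of HK3-null against Cas9 control (y axis) for each of the 80 nuclear subunit genes by complex (x axis), in DMSO and in ATRA. Filled points passed an adjusted p under 0.05 (limma), open points did not, grey bars are 1 SE and red lines are medians, which lie between -0.30 and -0.61 for all 5 complexes.

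The members at both ends of the range clustered on a few chromosomes, and those chromosomes were shifted as a whole. The median log2 fold change of all tested genes in DMSO was -0.75 on chromosome 5, 0.52 on chromosome 6, 1.10 on chromosome 8, -0.57 on chromosome 13 and -0.94 on chromosome 15, with similar values in ATRA (-0.78, 0.57, 1.06, -0.57 and -0.97). On chromosome 5, 72.5% of tested genes were lower in DMSO, and the 6 members there, UQCRQ, NDUFS6, COX7C, SDHA, NDUFS4 and NDUFA2, were all lower. On chromosome 15, 74.7% of tested genes were lower, as was COX5A, the single member. On chromosome 8, 85.7% were higher, as were all 4 members, CYC1, UQCRB, COX6C and NDUFB9. On chromosome 6, 61.4% were higher, as was COX7A2. No member lies on chromosome 13. The copy number of these chromosomes in the cell lines was not measured, and its part in these values was not tested.

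Lower members were also the majority on the other chromosomes. Among the 68 members elsewhere, 57 were lower and 1 was higher in DMSO (24.3% and 26.0% of tested genes outside those chromosomes), with a median of -0.46. In ATRA 58 were lower and 1 was higher (27.0% and 28.2%), with a median of -0.48. The higher gene was ATP5S in both. Relative to the median of their own chromosome, 78 of the 80 members were below it in DMSO and 76 in ATRA, and that included all 12 on chromosomes 5, 6, 8 and 15. When each chromosome's median was subtracted before the test, 70 members were lower and 1 was higher in each treatment. Of all 13256 tested genes, 3223 were then lower and 3326 higher in DMSO, and 3732 lower and 3588 higher in ATRA. The values of CYC1, UQCRB, COX6C, NDUFB9 and COX7A2 turned negative.

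**Figure D4:**
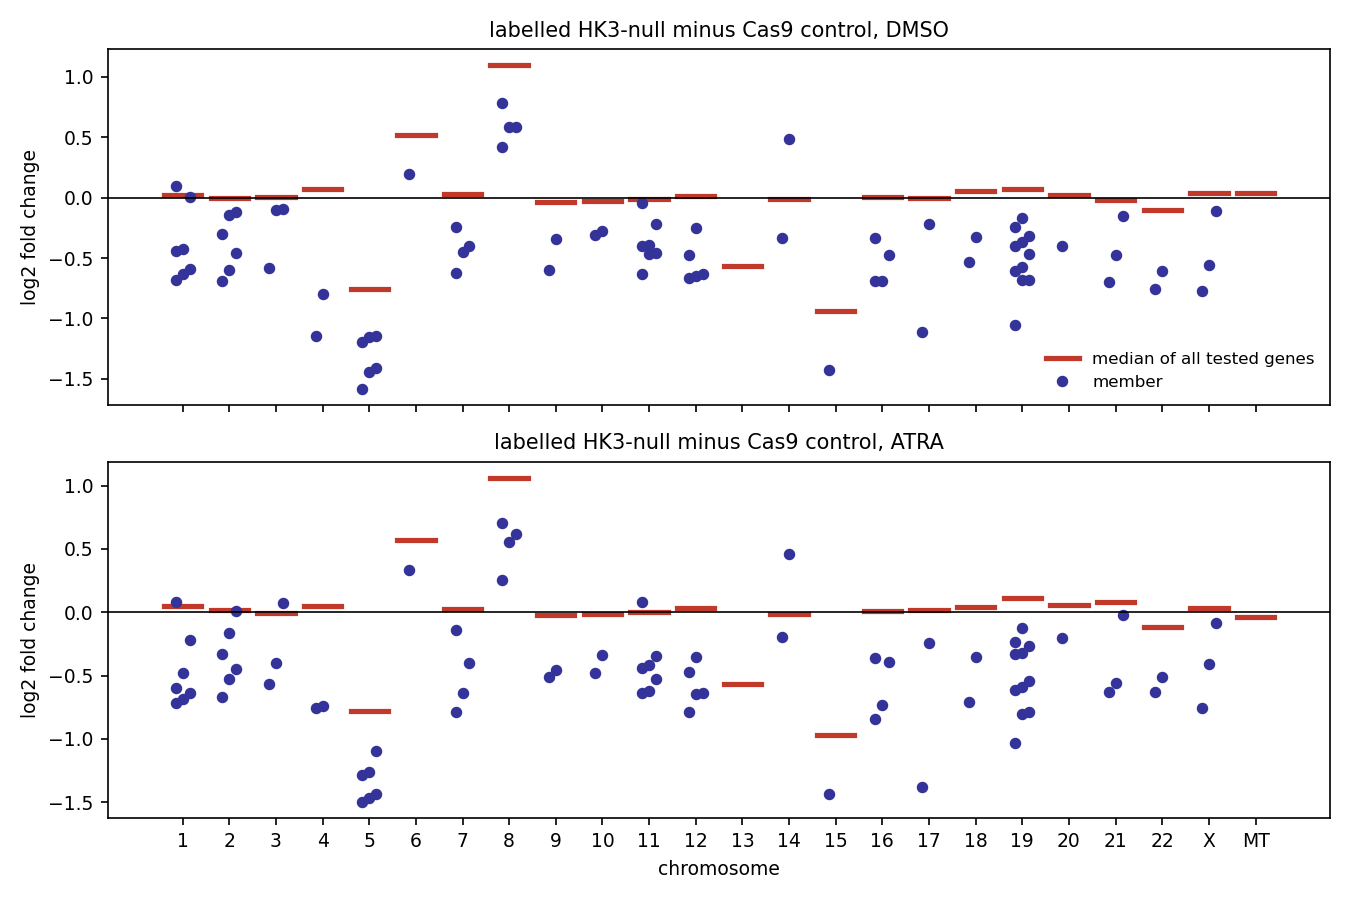
Log2 fold change of HK3-null against Cas9 control (y axes) by chromosome (x axis), in DMSO (upper panel) and in ATRA (lower panel). Each red bar is the median of all tested genes on that chromosome and each point a subunit gene, and the points lie below the bar for 78 of 80 genes in DMSO and 76 in ATRA, also on chromosomes 5, 6, 8 and 15 where the bar itself departs from 0.

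The 13 mitochondrial-encoded subunits, the other contributors to complexes I, III, IV and V, were compared as a list of their own. In HK3-null against Cas9 control libraries, 0 were higher and 1 was lower in DMSO (limma, and 0 higher and 1 lower at an unadjusted p under 0.05), with a median of 0.10. In ATRA 0 were higher and 1 was lower (1 and 1 at an unadjusted p under 0.05), with a median of -0.02. Without Cas9 control DMSO replicate 1 the median in DMSO was -0.0017. The lower gene was ND5, a proton-pumping subunit of complex I, with 103531, 148510 and 118112 normalized counts in Cas9 control DMSO and 93346, 80903 and 81139 in HK3-null DMSO libraries, without overlap (log2 fold change -0.52 ± 0.12, limma adjusted p = 0.00409, and -0.70 in ATRA). COX1, the catalytic subunit of complex IV, had 220451, 283463 and 259973 against 280045, 261509 and 272180, and those libraries overlapped.

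The summed mitochondrial-encoded counts were 2.34, 3.15 and 2.74 times the summed nuclear members in Cas9 control DMSO libraries, and 3.75, 3.95 and 3.57 times in Cas9 control ATRA. They were 4.28, 3.86 and 4.06 times in HK3-null DMSO, and 4.999, 4.95 and 5.73 times in HK3-null ATRA libraries. Within each treatment the HK3-null libraries thus had the higher ratio without overlap. The Cas9 control DMSO replicate that stood apart had the lowest of these ratios. The ratio depends on how much mitochondrial RNA the library preparation retained, and no test was made on it.

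Helper genes of the same pathway were compared from lists. Of 51 assembly factors of the 5 complexes, 26 were lower and 8 higher in DMSO (median -0.25), when 27.1% and 27.9% of all tested genes passed in these directions. In ATRA 26 were lower and 7 higher (median -0.27), against 29.5% and 29.6%. Outside the shifted chromosomes the counts were 23 lower and 4 higher of 43 in DMSO (24.3% and 26.0% of tested genes there). ECSIT, a complex I assembly factor on chromosome 19, had log2 fold changes of -1.10 in DMSO and -1.22 in ATRA (limma adjusted p = 7.79e-08 and 3.31e-08). NDUFAF2 and LYRM7, assembly factors of complexes I and III on chromosome 5, had -1.31 and -1.07 in DMSO, and SDHAF4, a complex II assembly factor on chromosome 6, had 1.58. ATPIF1, the inhibitor of ATP synthase, which the symbol rule does not catch, had 2562, 2691 and 2719 normalized counts in Cas9 control DMSO and 1656, 1756 and 1705 in HK3-null DMSO libraries, lower without overlap (log2 fold change -0.64, and -0.62 in ATRA).

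Among 14 genes of the mobile carriers and of ubiquinone synthesis, 5 were lower and 2 higher in DMSO (27.1% and 27.9% of all tested genes) and 7 were lower and 1 higher in ATRA (29.5% and 29.6%). The lower share in DMSO, 35.7%, was near that of all tested genes. CYCS, cytochrome c, had log2 fold changes of -0.48 (limma adjusted p = 0.00274) and -0.74. Of the 15 tested regulators of OXPHOS genes and mitochondrial DNA, 6 were lower (40%) and 2 higher in DMSO, and 7 were lower (46.7%) and 1 higher in ATRA, against the same shares of all tested genes. The coactivator gene PPARGC1B on chromosome 5 had -1.43 and -1.76, the mitochondrial DNA polymerase POLG on chromosome 15 had -1.41 in DMSO, and the mitochondrial RNA polymerase POLRMT had -0.43 and -0.77. For the factors whose motifs were searched, the genes NRF1 and GABPA did not pass in DMSO. Their log2 fold changes there were -0.20 (limma adjusted p = 0.149) and 0.13 (limma adjusted p = 0.216), and values in ATRA are not given here.

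The other comparisons asked what ATRA did within each cell line. In Cas9 control libraries 23 members were lower and 7 higher with ATRA, when 21.3% and 20.3% of all tested genes were lower and higher, and the median was -0.12. No member changed by 1.5-fold or more (7.79% of tested genes were lower by that much, and 11.2% higher). In HK3-null libraries 31 were lower and 8 higher (25.1% and 24.0% of all tested genes), with a median of -0.11. In both lines 19 members were lower and 5 were higher, and none was lower in one and higher in the other. No matching counts over all tested genes were made. The ATRA comparisons share no library, and their log2 fold changes had the same sign for 67 members. Their Pearson correlation was 0.86 over the 80 members and 0.61 over all tested genes, given as a description. The split in Cas9 control libraries depended on scaling, with 12 lower and 13 higher after quantile normalization and 20 lower and 11 higher with equal sums. With the replicate number as a block, 38 were lower and 8 higher. The block raised the counts over all 13256 tested genes as well, from 2823 lower and 2685 higher to 3769 and 3640. Those counts were 2958 and 2505 after quantile normalization and 2568 and 3050 with equal sums. The split also depended on single libraries: 13 were lower without Cas9 control DMSO replicate 1 or without Cas9 control ATRA replicate 3, 14 without Cas9 control DMSO replicate 2, and 36 without HK3-null ATRA replicate 3. In the same order, 2304, 2409, 2378 and 3026 of all tested genes were lower. Without Cas9 control ATRA replicate 1 or Cas9 control DMSO replicate 3, 4 were higher (2567 and 2486 of all tested genes). In HK3-null libraries 13 were higher without HK3-null ATRA replicate 3 (2951 of all tested genes).

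By complex, complex I had 14 lower and 4 higher members with ATRA in Cas9 control and 17 lower and 3 higher in HK3-null libraries. Complex V had 6 lower and 0 higher (0 also at an unadjusted p under 0.05, limma), and then 7 lower and 2 higher. Complex IV had 1 lower and 2 higher, and then 0 lower (1 at an unadjusted p under 0.05) and 2 higher. NDUFAB1, the mitochondrial acyl carrier protein, had 5181, 5177 and 4908 normalized counts in Cas9 control DMSO and 3862, 3779 and 3455 in Cas9 control ATRA libraries. In HK3-null cells it had 3202, 3155 and 3099 in DMSO and 2352, 2320 and 2034 in ATRA. It was lower with ATRA in every library of both lines (log2 fold changes -0.46 and -0.50, limma adjusted p = 0.000158 and 5.66e-05). ATP5D, the delta subunit of the central stalk, had 5702, 4664 and 5112 in Cas9 control DMSO and 4087, 3745 and 3554 in Cas9 control ATRA libraries. Those libraries did not overlap either (log2 fold change -0.44, and -0.54 in HK3-null cells).

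ATP5G1, printed above as a c-ring gene, had the lowest ATRA log2 fold change of all members in both lines, -0.48 in Cas9 control (limma adjusted p = 0.00196) and -0.74 in HK3-null libraries (limma adjusted p = 5.72e-05). The difference of those values did not pass (interaction -0.27, limma adjusted p = 0.286). ATP5G3 did not pass in either line (log2 fold changes -0.15 and -0.13, limma adjusted p = 0.0793 and 0.113, or 0.011 and 0.0204 with the replicate block). The ATP5G3 calls were also gained in the first line without HK3-null ATRA replicate 3 (adjusted p = 0.0144, limma) and with only the 2 groups compared (0.037). In the second line they were gained without HK3-null ATRA replicate 2 (adjusted p = 0.0463, limma), with quantile normalization (0.0245) and with equal sums (0.0107). NDUFA5, an accessory subunit of the matrix arm, had 2551, 2723 and 2235 in Cas9 control DMSO and 2271, 1941 and 1832 in Cas9 control ATRA libraries, which overlapped, with 1845, 1747 and 1874 against 1251, 1136 and 1101 in HK3-null cells, which did not. Its log2 fold changes were -0.31 and -0.65. NDUFA8, an intermembrane-space subunit of complex I, had a log2 fold change of -0.41 in Cas9 control libraries.

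The 5 members that were higher with ATRA in both lines were NDUFB1, NDUFV3, NDUFA4, COX8A and UQCRB. NDUFB1, a small membrane-arm subunit, had 1228, 1221 and 1129 normalized counts in Cas9 control DMSO and 1645, 1552 and 1541 in Cas9 control ATRA libraries. In HK3-null cells it had 898, 941 and 1006 in DMSO and 1332, 1540 and 1284 in ATRA. The ATRA libraries were higher without overlap in both lines (log2 fold changes 0.41 and 0.54, limma adjusted p = 0.00138 and 0.000119). NDUFA4 had 7174, 6809 and 6126 in Cas9 control ATRA libraries, above its DMSO values given before, with log2 fold changes of 0.38 (limma adjusted p = 0.00286) and 0.49. NDUFV3, an accessory subunit of the NADH-oxidising arm, had 645, 627 and 735 in DMSO and 865, 875 and 907 in ATRA in Cas9 control cells, again without overlap (log2 fold changes 0.40 and 0.53). COX8A had log2 fold changes of 0.25 (limma adjusted p = 0.0202) and 0.37, and UQCRB of 0.20 and 0.32. The COX8A call in Cas9 control cells was lost without replicate 1 or 2 of Cas9 control ATRA or replicate 2 or 3 of Cas9 control DMSO (adjusted p from 0.0519 to 0.0631).

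**Figure D5:**
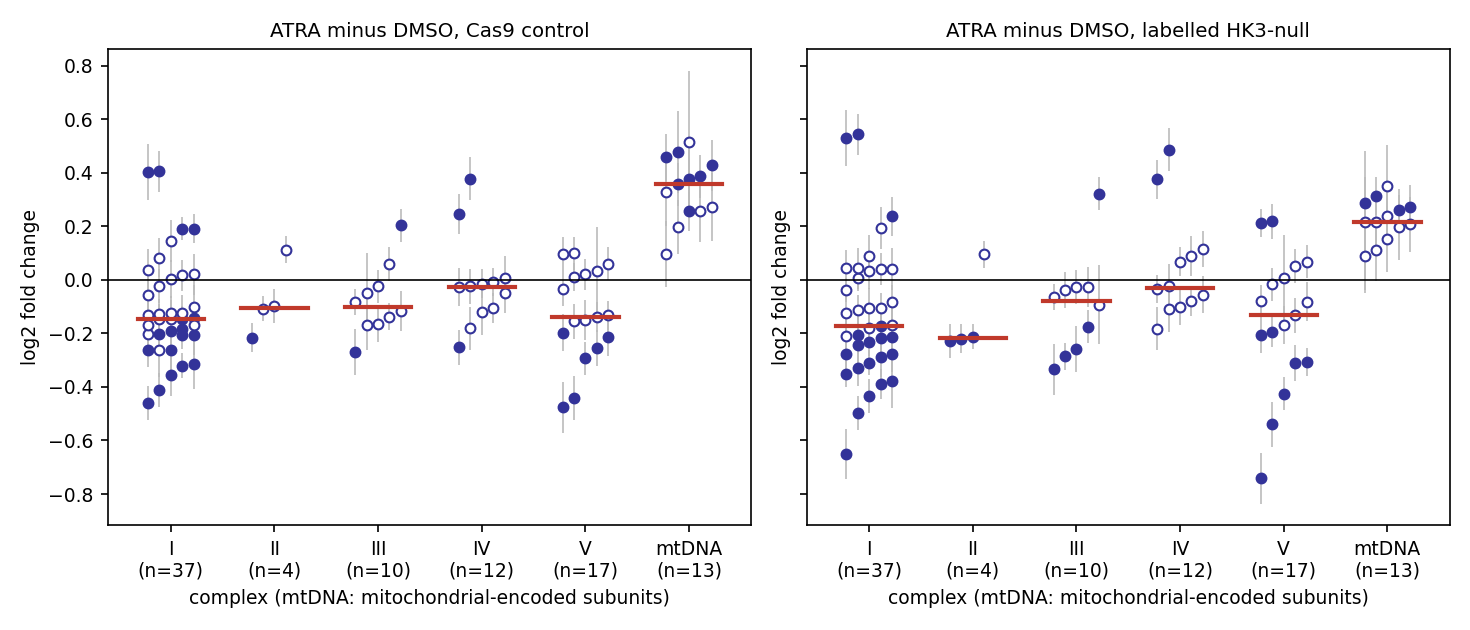
Log2 fold change of ATRA against DMSO (y axis) for each subunit gene by complex (x axis, with the mitochondrial-encoded subunits in their own column), in Cas9 control and in HK3-null cells. Filled points passed an adjusted p under 0.05 (limma), open points did not, grey bars are 1 SE and red lines are medians, and the 13 mitochondrial-encoded genes all lie above 0 in both lines on the deposited scale (10 in HK3-null cells after quantile normalization) while most nuclear genes lie below it.

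The 13 mitochondrial-encoded subunits were compared in the same way. In Cas9 control libraries 7 of 13 were higher with ATRA and 0 lower (limma, 9 and 0 at an unadjusted p under 0.05), which is 53.8% higher against 20.3% of all tested genes, with a median of 0.36. In HK3-null libraries 4 were higher and 0 lower (7 and 0 at an unadjusted p under 0.05), which is 30.8% higher and near the 24.0% of all tested genes, with a median of 0.22. All 13 had log2 fold changes above 0 in both lines, except that quantile normalization left 10 above 0 in HK3-null cells. Without Cas9 control DMSO replicate 1 the median in Cas9 control cells was 0.28. COX1 had 347608, 352558 and 342941 normalized counts in Cas9 control ATRA libraries, above all DMSO libraries of that line given before (log2 fold change 0.46, limma adjusted p = 0.00144). COX3, another core subunit of complex IV, and CYTB, the core subunit of complex III, had 0.43 and 0.39 in Cas9 control and 0.29 and 0.27 in HK3-null libraries. Among the 51 assembly factors, 24 were lower and 1 was higher with ATRA in Cas9 control (21.3% and 20.3% of all tested genes), and 26 were lower and 3 higher in HK3-null libraries (25.1% and 24.0%). The higher gene in Cas9 control was SURF1, a complex IV assembly factor, with log2 fold changes of 1.09 and 0.83.

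The effect of ATRA was then compared between the lines with an interaction term, which passed for 3 of 80 members and for 9.12% of all tested genes. The values of 2 of them, NDUFC1 and NDUFB5, are given here. NDUFC1 had 1449, 1265 and 1303 normalized counts in Cas9 control ATRA libraries, below all its DMSO libraries, while in HK3-null cells it had 768, 745 and 815 in DMSO and 826, 805 and 767 in ATRA, which overlapped (interaction 0.40 ± 0.11, limma adjusted p = 0.0425). NDUFB5, a membrane-arm accessory subunit, had 2480, 2473 and 2280 in DMSO and 2863, 2639 and 2757 in ATRA in Cas9 control cells, and 2263, 2140 and 2319 against 2096, 2133 and 2026 in HK3-null cells. Its ATRA libraries lay above the DMSO libraries in the first line (limma adjusted p = 0.0151) and below them in the second, where the difference did not pass (adjusted p = 0.14, interaction -0.30 ± 0.08, limma adjusted p = 0.0351). Over 12 fits that each left out 1 library, NDUFB5 kept its call without Cas9 control ATRA replicate 2 or HK3-null DMSO replicate 2 (adjusted p = 0.0391 and 0.04, limma) and lost it in the other 10, up to 0.084. It also lost it with chromosome medians subtracted (0.0563) and without the variance trend (0.0528). NDUFC1 kept its call without Cas9 control ATRA replicate 1, Cas9 control DMSO replicate 3 or HK3-null ATRA replicate 3 (adjusted p = 0.0282, 0.019 and 0.0442, limma) and lost it in the other 9, up to 0.106. It also lost it with equal sums (0.0627), without the filter on low values (0.053) and without the variance trend (0.0568).

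The ATACseq table listed 8286 regions, all of which differed by at least 1.65-fold between the cell lines under ATRA, so it is a selection on that contrast and its values are given without a test. It listed 5 members in 6 regions (hg38), each together with at least 1 other gene. These were OTUB1 with COX8A, MIR3607 with COX7C, JAM2 with ATP5J, TATDN1 with NDUFB9, and SHARPIN and MAF1 among others with CYC1. Which gene a region belongs to was not tested. A region 7527 bases from the COX8A start site, chr11:63982147-63982515, had a signal of 53.8 and 42.3 in Cas9 control ATRA libraries, 9.64 and 6.27 in HK3-null ATRA, 83.4 and 39.4 in Cas9 control DMSO, and 6.36 and 7.82 in HK3-null DMSO libraries. The signal was lower in each HK3-null library, while COX8A RNA did not pass in either treatment with all libraries included. A region 5746 bases from the COX7C start site, chr5:86623687-86624292, had ratios of HK3-null to Cas9 control of 0.299 in ATRA and 0.449 in DMSO, and COX7C RNA was lower in both. A region 11689 bases from the ATP5J start site, chr21:25722506-25723215, had 16.6 and 14.5 in Cas9 control ATRA and 47.1 and 62.7 in HK3-null ATRA libraries, a ratio of 3.53 (2.32 in DMSO). ATP5J RNA, which encodes a subunit of the peripheral stalk, went the other way, with log2 fold changes of -0.70 and -0.63.

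The other regions lay on chromosome 8. One that overlaps NDUFB9, chr8:124538370-124539425, had 54.7 and 40.3 in Cas9 control ATRA and 91.7 and 106 in HK3-null ATRA libraries (ratio 2.08, and 2.01 in DMSO). A region over CYC1, chr8:144094628-144095488, had ratios of 2.31 in ATRA and 2.31 in DMSO, and one 6090 bases from that gene, chr8:144103615-144105093, had ratios of 2.18 and 2.40. Signal and RNA were higher together for both genes, and both genes lie on the chromosome where most tested genes were higher.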

How the data were processed

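RNA was measured in 12 libraries and chromatin accessibility in 8. The deposited RNA values were log2 values of counts that the authors had scaled between libraries and rounded, with a count of 0 written as the log2 of 0.001. The reads were mapped to GRCh38 (hg38), DESeq2 is named in the submitters' processing notes, and the sources used here do not give the aligner, the counting program, the use of strand or the treatment of reads that match several loci. The study's methods name RPKM, which divides by gene length, before the log2 step. The deposited values, raised back, were whole numbers (largest relative distance 3.47e-05), so they were treated as scaled counts not divided by gene length, called normalized counts here, and levels were compared only within a gene. Counts before scaling were not used, and depth was estimated from gaps between low values at 22700000 to 37000000 counts per library, a weak estimate for HK3-null ATRA replicates 1 and 2. The deposited ATACseq signal is a fragment density per merged MACS2 peak region, which the authors computed after reducing libraries to equal tag numbers.

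Log2 values were fitted with limma 3.58.1 in R 4.3.3 (1 mean per group, variance trend, all 12 libraries) over 13256 genes whose mean log2 value exceeded 3 in any of the 4 groups, and p-values were adjusted by Benjamini-Hochberg over all of them. edgeR was not used because no counts before scaling were at hand. The 330 rows that name no gene, up to 0.00926% of a library, were left out. The procedure was tested on simulated data. Tables and figures were made with Python 3.11.15, pandas 2.3.3 and matplotlib 3.10.9. Same-numbered libraries of different groups deviated together (correlation 0.178 to 0.631 over 18 pairs, 10667 genes) and other pairs less so (-0.643 to 0.286 over 36), so a replicate block was run as an alternative. The alternatives were other scalings, filters, thresholds and models, and leaving out each library.

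The members and lists were chosen with earlier results of these data known. Named genes were, per comparison, the 4 largest rises and falls among members that passed, the smallest interaction p-values, members on shifted chromosomes with at least 1.5-fold changes, the SDH genes, CYC1 and isoform groups. NDUFA3, NDUFB4, UQCR11, UQCRH, UQCRHL, ATP5A1, ATP5B, ATP5J and the genes singled out from the helper lists fall outside these or were picked after their values were seen. The values of 1 gene that passed the interaction test are not reported here.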

Additional observations from a re-analysis of the deposited data

Results flagged for a closer look

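The interaction term, for a response to ATRA that differs between the cell lines, passed for 3 of 80 subunit genes and for 9.12% of all tested genes. Of these 3 subunit genes, 2, both of complex I, are given here. NDUFB5 had an interaction of -0.30 (SE 0.08, limma adjusted p = 0.0351), with log2 fold changes of 0.19 in Cas9 control and -0.10 in HK3-null libraries, and -0.38 to -0.26 over 19 alternatives, of which 12 lost the call. NDUFC1 had an interaction of 0.40 (SE 0.11, limma adjusted p = 0.0425), with log2 fold changes of -0.36 and 0.04, and 0.31 to 0.47 over its alternatives, of which 12 lost the call.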

How the results depend on the processing

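The direction of the genotype counts held under every scaling, filter and model tried. With the replicate block, which follows the pairing of replicate numbers, 67 members were lower and 6 higher in each genotype comparison, 38 lower and 8 higher with ATRA in Cas9 control, 37 lower and 9 higher in HK3-null cells, and 6 had an interaction. Over all tested genes the block gave 4362 lower and 4480 higher in DMSO and 4627 and 4678 in ATRA. For ATRA it gave 3769 and 3640 in Cas9 control and 4064 and 4062 in HK3-null cells. The block also brought SDHA (adjusted p = 0.0173, limma) and COX6A1 (0.0413) past the threshold with ATRA in Cas9 control cells, and it changed no other call of a named gene beyond these and those given above. Leaving out each library gave 4 to 6 higher and 61 to 67 lower members in DMSO, 4 to 8 and 64 to 66 in ATRA, 4 to 8 and 13 to 36 for ATRA in Cas9 control, 6 to 13 and 23 to 36 for ATRA in HK3-null cells, and 0 to 2 interactions. Those fits gave 3272 to 3784 higher and 3190 to 3765 lower of all tested genes in DMSO, and 3602 to 3948 and 3530 to 3924 in ATRA. For ATRA they gave 2258 to 2789 and 2304 to 3026 in Cas9 control, and 2800 to 3233 and 2901 to 3389 in HK3-null cells. With a fold of at least 1.5, with adjusted or unadjusted p, 3 were higher and 31 lower in DMSO, 2 and 33 in ATRA, 0 and 0 for ATRA in Cas9 control, and 0 and 2 for ATRA in HK3-null cells. With a fold of at least 2 the counts were 0 and 10, 0 and 9, 0 and 0, and 0 and 0. For ATRA in Cas9 control, quantile normalization gave 13 higher and 12 lower (2505 and 2958 of all tested genes), and equal sums 11 higher (3050 of all tested genes). Interactions numbered 11 with quantile normalization, 12 with equal sums, 1 without the filter on low values and 0 without the variance trend. With chromosome medians subtracted, 1 member was higher in each genotype comparison, and these values turned: NDUFB9 -0.31, COX6C -0.51, UQCRB -0.51, CYC1 -0.68 and COX7A2 -0.33 in DMSO, and UQCRB -0.36, NDUFB9 -0.45, COX6C -0.50, CYC1 -0.81, COX7A2 -0.24 and COX7A2L -0.011 in ATRA. COX7A2L in ATRA was also negative with quantile normalization (-0.030) and equal sums (-0.035) and ran from -0.041 to 0.079 over left-out libraries, and COX8A in ATRA turned with quantile normalization (-0.0094). For ATRA in Cas9 control, values near 0 turned positive with quantile normalization (SDHA 0.0097, SDHD 0.0084, COX4I1 0.11, COX6A1 0.0042, COX6B1 0.10, COX7A2 0.070) and equal sums (COX4I1 0.032, COX6B1 0.023). Over left-out libraries COX4I1 ran from -0.029 to 0.0092, COX6B1 from -0.054 to 0.016 and COX7A2 from -0.088 to 0.014. Apart from the alternatives that build in fewer genes, fewer libraries or a higher threshold, the cause was not tested. Of 1817 values of named genes under alternatives, 1683 kept direction and side of the threshold, 76 lost it, 29 gained it and 29 turned. Depth is known only by estimate, so no counting interval was given.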
